A study of Mus musculus with 6 samples.

Results

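The genes described here are the nuclear genes of oxidative phosphorylation, taken as every gene whose symbol begins with Ndufa, Ndufb, Ndufc, Ndufs, Ndufv, Uqcr, Cox4, Cox5, Cox6, Cox7, Cox8 or Atp5, together with Sdha, Sdhb, Sdhc and Sdhd. The rule found 93 of the 18437 genes listed. They were 77 subunits used in most tissues, 8 complex I assembly factors (the Ndufaf genes), 3 striated muscle isoforms of complex IV, 3 other isoforms of restricted expression and 2 near copies of Ndufb4. The 77 common subunits comprised 36 of complex I, 4 of complex II, 8 of complex III, 12 of complex IV and 17 of complex V. RNA was sequenced from tumours that grew in the tongue of C57BL/6 mice after injection of 4MOSC1, a murine cell line from oral squamous cell carcinoma. The control tumours came from 4MOSC1-con cells and the LIGHT tumours from 4MOSC1-LIGHT cells, which overexpress LIGHT, the cytokine of the tumour necrosis factor family encoded by Tnfsf14. Each group had 3 libraries, and the labels give neither the age of the mice nor the vector or promoter behind the overexpression, nor do they say whether the line was a clone. The labels tie no library to an animal, so all p-values speak to the spread among these 6 libraries, which may be technical.

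Oxidative phosphorylation is carried out in the inner mitochondrial membrane. Complex I takes electrons from NADH and complex II from succinate, complex III passes them on to cytochrome c, and complex IV gives them to oxygen. Complexes I, III and IV pump protons, and complex V, the ATP synthase, uses the return of the protons to make ATP. Most subunits are encoded in the nucleus and a few core ones in mitochondrial DNA, and assembly factors that are absent from the finished enzyme join the parts. Muscle fibres are rich in mitochondria and use their own isoforms of several complex IV subunits. Values are TPM, a share of all transcripts corrected for transcript length. They hold no read numbers, and the depth of the libraries is unknown.

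Tnfsf14, the overexpressed gene, was at 0.66, 0.53 and 0.79 TPM in control and 26.2, 25.9 and 23.9 TPM in LIGHT libraries. Keratin 14 (Krt14), a marker of basal keratinocytes, was at 12469, 10648 and 11146 TPM in control and 9871, 7000 and 9878 TPM in LIGHT libraries. Every LIGHT library lay below every control library, without a call. The tumour pieces also held other cells. All 25 genes of a skeletal muscle list were tested, and their summed level was 6759, 3963 and 4297 TPM in control and 6263, 10801 and 7508 TPM in LIGHT libraries. The 4 haemoglobin genes and 2 other red blood cell genes summed to 70.1, 453 and 86.9 TPM in control and 119, 2086 and 896 TPM in LIGHT libraries. The 14 genes of the basal keratinocyte list summed to between 34820 and 42609 TPM in control and between 23544 and 35947 TPM in LIGHT libraries. By these sums LIGHT replicate 2 was the highest of the 6 in the muscle and red blood cell lists and the lowest in the keratinocyte list. Krt5, Krt17, Epcam and Cdh1 of the keratinocyte list were lowest in control replicate 3. Itgb4 was lowest in control replicate 2 and Krt15 in LIGHT replicate 1, and the rest of that list in LIGHT replicate 2. Of the 14 keratinocyte genes 1 fell in LIGHT tumours, Krt6a, and 0 rose, when 5.41% of all tested genes fell. All 11 tested T cell genes and 6 of 11 macrophage genes rose in LIGHT tumours, when 17.7% of all tested genes rose. The part of these cells in the values below was not tested, and in such bulk samples fewer cells of a type and less RNA per cell cannot be told apart.

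The common subunits were highest in a single library. LIGHT replicate 2 was the highest of the 6 libraries in 61 of the 77 common subunits (79.2%), while it was the highest in 13.8% of all tested genes. Relative to the mean of the control libraries on the log2(TPM + 1) scale, the median common subunit stood at 0.05, 0.04 and -0.08 in control replicates 1, 2 and 3. In LIGHT replicates 1, 2 and 3 it stood at -0.00, 0.25 and 0.03, and the median of all tested genes at 0.14, 0.02 and 0.10. The subunits of LIGHT replicates 1 and 3 were therefore near the control mean while those of LIGHT replicate 2 lay above it. Control replicate 3 was the lowest library in 44 of the 77. The median standard deviation of a common subunit was 0.08 in control and 0.14 in LIGHT libraries, and 0.05 in LIGHT libraries without replicate 2, all on the log2 scale.

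**Figure D1:**
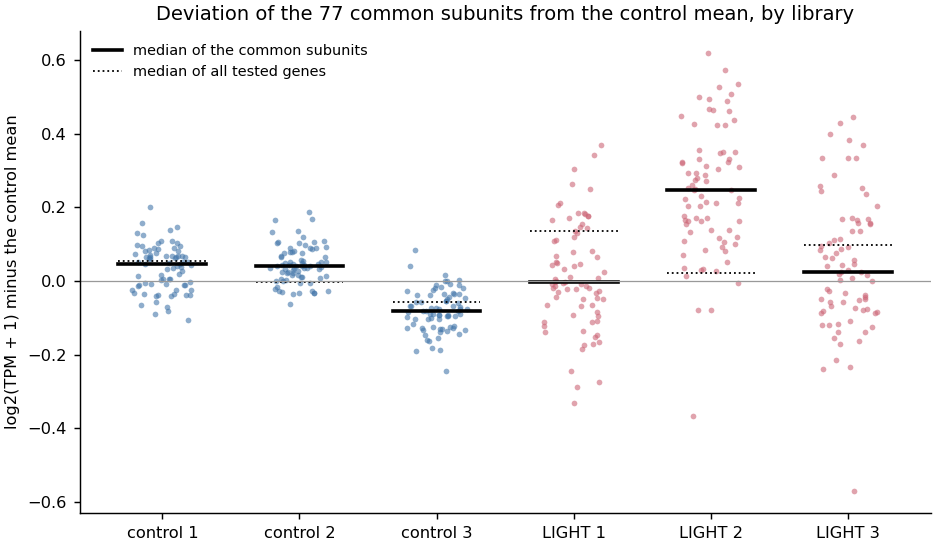
Each point is 1 of the 77 common subunits, plotted by library as log2(TPM + 1) minus the mean of the 3 control libraries; the thick line is their median and the dotted line the median of all tested genes. The subunits of LIGHT replicate 2 have a median of 0.25, above those of the other 5 libraries, which lie between -0.08 and 0.05.

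The libraries also differed by transcript length. In LIGHT replicate 2 the median deviation from the control mean fell from 0.31 in the 143 tested genes whose longest protein-coding transcript had up to 600 nt, through 0.18, 0.12, 0.08 and 0.01, to -0.07 in the 4155 genes over 4000 nt. Between the same classes it fell from 0.20 to 0.08 in LIGHT replicate 3, from 0.04 to -0.03 in control replicate 2 and from -0.01 to -0.06 in control replicate 3, and it rose from -0.04 to 0.09 in control replicate 1 and from 0.06 to 0.16 in LIGHT replicate 1. The common subunits have short transcripts, with a median of 875 nt against 3017 nt in all tested genes. In LIGHT replicate 2 the median deviation was 0.24 in common subunits over 1000 nt (32 genes) and 0.27 in those up to 1000 nt (43 genes). Tested genes of up to 1000 nt that are no members stood at 0.19 (723 genes). The genes of cytosolic ribosomal proteins stood at 0.05 (82 genes), those of mitochondrial ribosomal proteins at 0.00 (78 genes) and the citrate cycle genes at 0.13 (20 genes). The part of transcript length, muscle RNA or red blood cell RNA in the level of this library was not tested.

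**Figure D2:**
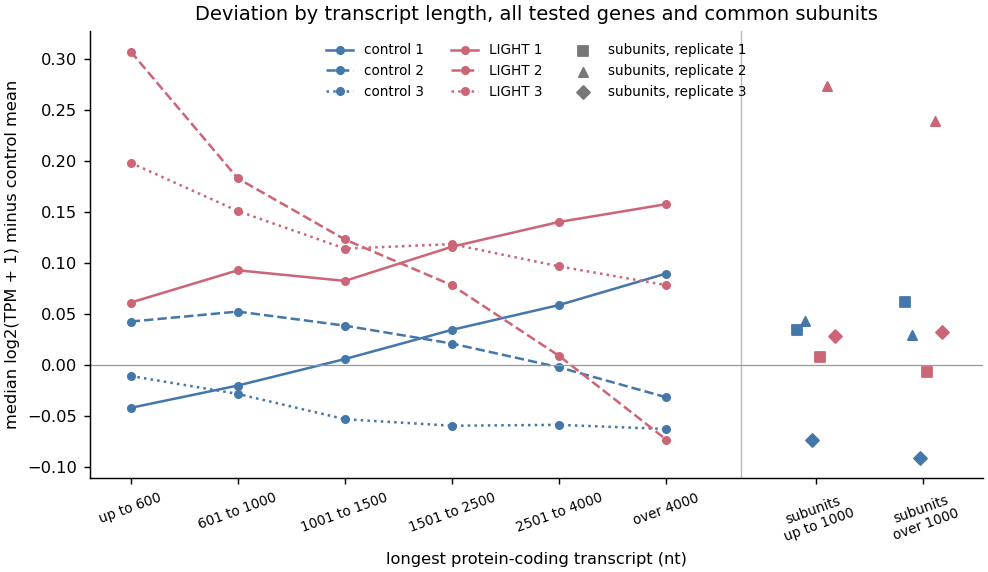
Lines give the median deviation from the control mean, log2(TPM + 1), of all tested genes in 6 classes of transcript length, by library; symbols on the right give the same for common subunits of up to and over 1000 nt. LIGHT replicate 2 falls from 0.31 to -0.07 with length among all genes, LIGHT replicate 3 from 0.20 to 0.08, while control replicate 1 and LIGHT replicate 1 rise, and for LIGHT replicate 2 the subunits stand at 0.27 and 0.24.

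The comparison of LIGHT with control tumours asks which members differed beyond the spread between libraries. Of the 93 members 92 reached 1 TPM in at least 3 libraries and were tested with limma on log2(TPM + 1). Ndufb4b did not, with 2.52, 0.85 and 0.73 TPM in control and 0.00, 0.52 and 0.92 TPM in LIGHT libraries. A member was called at a Benjamini-Hochberg adjusted p under 0.05 over all 13167 tested genes, and fold changes are differences of log2(TPM + 1). In LIGHT tumours 11 members rose and 1 fell, when 17.7% of all tested genes rose and 5.41% fell. The 3 LIGHT libraries lay all above the control libraries in 25 members and all below them in 2, Ndufa4 and Ndufs6, against 29.6% and 11.6% of all tested genes. None of these counts is above the share of all tested genes. The median log2 fold change of the members was 0.09, as was that of all tested genes, with 66 members above 0 and 26 below. Without LIGHT replicate 2 the median was 0.03 for the members and 0.12 for all tested genes. Without LIGHT replicate 1 it was 0.13 and 0.06.

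The number of rises moved with the libraries used, among the members and among all tested genes. Leaving out LIGHT replicate 2 gave 4 rises, Ndufaf3, Ndufa4l2, Cox8b and Cox7a1, none of them a common subunit, when 11.9% of all tested genes rose. Leaving out control replicate 3 gave 0, with 13 members higher at an unadjusted limma p under 0.05, when 9.87% of all genes rose. Leaving out control replicate 1 gave 4 rises (14.0% of all genes), control replicate 2 gave 6 (12.0%), LIGHT replicate 3 gave 2 (8.86%) and LIGHT replicate 1 gave 12 (14.6%). The log2 fold changes of the 7 risen common subunits stayed above 0 in all 17 other settings, with lowest values between 0.14 for Ndufa7 and 0.29 for Cox7a2l. Trimmed-mean (TMM) scaling, which moves the median of all tested genes from 0.09 to -0.03, left 3 rises (Cox7b, Ndufa4l2 and Ndufaf3) when 12.8% of all genes rose, and the median of the members was then -0.03. With the mean of the skeletal muscle list as a covariate 1 member rose, Ndufa4l2, and 4.05% of all tested genes rose.

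**Figure D3:**
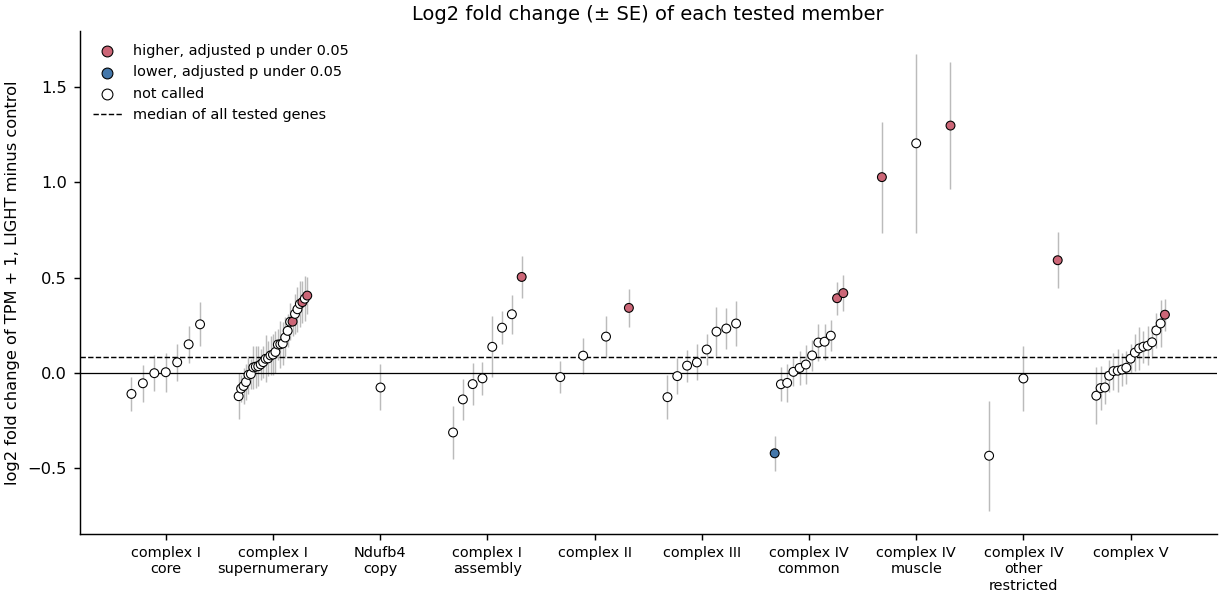
Each point is a tested member, with its log2 fold change of TPM + 1 (LIGHT minus control) and standard error from limma, grouped by complex and role; red and blue mark members called higher and lower. Most points lie around the dashed median of all tested genes at 0.09, with the 3 striated muscle isoforms between 1.03 and 1.30 and Ndufa4 at -0.42.

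RefSeq promoters (GRCm38.p6) were available for 76 of the members. Short motifs of the factors linked to mitochondrial genes were searched on both strands from 250 bases before to 50 bases after the start. The NRF1 core TGCGCATGC was found in 6 of the 76 (7.89%), against 3.02% of promoters of tested genes and 1.59% of all 27025 promoters. The YY1 motif AANATGGC was found in 17 (22.4%), against 8.45% and 6.23%, and the ETS core CCGGAAG, bound by GABP, in 18 (23.7%), against 17.6% and 9.12%. The MEF2 letters CTAAAAATA were found in 0 member promoters, 0.248% of those of tested genes and 0.503% of all. Of the 8 called-higher members with a promoter in the table, 2 held the NRF1 core (Ndufa6 and Atp5g2), 3 the YY1 motif (Ndufaf3, Ndufb11 and Cox7b) and 0 the ETS core. A match is a stretch of letters and no site of binding. The 150 bases before the start are shown for 2 risen members with a match, for the member that fell and for 2 striated muscle isoforms, 5′ to 3′ on the strand of the gene; capitals mark the motif. In Ndufa6 (minus strand, chr15:82354292-82354441) they are the NRF1 core, and in Ndufaf3 (minus strand, chr9:108567437-108567586) the YY1 motif, each in reverse complement. The stretches of Ndufa4 (minus strand, chr6:11907451-11907600), Cox8b (minus strand, chr7:140900447-140900596) and Cox7a1 (plus strand, chr7:30184021-30184170) hold none of the 4 motifs.
Ndufa6: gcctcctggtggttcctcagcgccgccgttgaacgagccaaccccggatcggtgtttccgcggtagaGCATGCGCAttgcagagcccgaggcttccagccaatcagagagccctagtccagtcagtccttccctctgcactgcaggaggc
Ndufaf3: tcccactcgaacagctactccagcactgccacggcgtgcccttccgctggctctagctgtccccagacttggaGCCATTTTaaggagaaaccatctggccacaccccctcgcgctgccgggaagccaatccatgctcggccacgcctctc
Ndufa4: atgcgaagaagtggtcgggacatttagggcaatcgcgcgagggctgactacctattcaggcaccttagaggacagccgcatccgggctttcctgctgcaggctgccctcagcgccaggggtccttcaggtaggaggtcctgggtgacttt
Cox8b: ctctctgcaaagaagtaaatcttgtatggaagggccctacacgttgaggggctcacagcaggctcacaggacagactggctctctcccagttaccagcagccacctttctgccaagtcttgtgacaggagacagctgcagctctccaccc
Cox7a1: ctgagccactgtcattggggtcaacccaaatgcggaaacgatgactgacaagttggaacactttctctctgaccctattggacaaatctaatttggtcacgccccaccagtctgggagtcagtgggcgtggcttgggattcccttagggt

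Among the 36 complex I subunits 3 rose, when 17.7% of all tested genes rose. All 3 are supernumerary, that is, outside the catalytic core, as are 29 of the 36. None of the 7 core subunits, the NADH-binding, iron-sulfur and quinone-site proteins, was called (limma), and the core had 0 members at an unadjusted p under 0.05 in either direction. The median log2 fold change was 0.00 in the core and 0.10 in the 29 supernumerary subunits. Ndufb11, a subunit of the membrane arm (chromosome X from 20615326 to 20617619), was at 112, 117 and 98.3 TPM in control and 135, 156 and 144 TPM in LIGHT libraries. Ndufa7 (chromosome 17 from 33824572 to 33838316) was at 268, 255 and 246 TPM and at 291, 323 and 313 TPM. Ndufa6 (chromosome 15 from 82350139 to 82354291), a small protein that binds the mitochondrial acyl carrier protein, was at 148, 162 and 146 TPM and at 169, 219 and 205 TPM. In each of the 3 genes every LIGHT library lay above every control library. The log2 fold changes were 0.41 (limma adjusted p = 0.0225), 0.27 (0.0434) and 0.37 (0.0474). The call of Ndufb11 was lost without either of LIGHT replicates 2 and 3 and without control replicate 3, and those of Ndufa7 and Ndufa6 when any library but LIGHT replicate 1 was left out.

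Ndufa3, the highest complex I subunit, missed the threshold narrowly. It was at 805, 876 and 877 TPM in control and 964, 1310 and 1101 TPM in LIGHT libraries, groups that did not overlap (limma log2 fold change 0.39, SE 0.12, adjusted p = 0.0508). Next in level were Ndufb4, at 477 ± 15.1 and 491 ± 66.5 TPM, and Ndufb7, at 357 ± 12.2 and 367 ± 56.8 TPM (mean ± SD, n = 3 per group, here and below), neither called. Ndufb4c, a near copy of Ndufb4, was at 75.0 ± 8.64 and 71.1 ± 8.71 TPM; how reads were divided between such copies is not given in the sources used here. Ndufs6, an accessory subunit, had its LIGHT libraries at 241, 243 and 243 TPM, all below the control libraries at 265, 261 and 245 TPM, by a log2 fold change of only -0.08 (limma adjusted p = 0.435). Among the core subunits the furthest from 0 was Ndufs7, an iron-sulfur protein near the quinone site, at 197 ± 10.8 in control and 236 ± 35.9 TPM in LIGHT tumours, with LIGHT replicate 2 at 277 TPM (limma adjusted p = 0.152).

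Of the 8 Ndufaf assembly factors 1 rose, when 17.7% of all tested genes rose. Ndufaf3, which acts early in building the quinone-reducing module of complex I, was at 6.31, 7.82 and 6.89 TPM in control and 10.6, 10.9 and 9.57 TPM in LIGHT libraries. Its LIGHT libraries lay close together and clear of the control ones (limma log2 fold change 0.50, SE 0.11, adjusted p = 0.0166), and its call was kept without LIGHT replicate 2 but lost without control replicate 3 (adjusted p = 0.0550). Ndufaf8 was at 75.8 ± 8.78 and 93.6 ± 3.76 TPM and Ndufaf1 at 19.4 ± 0.833 and 23.0 ± 1.26 TPM, both with separate groups and without a call (limma adjusted p = 0.0650 and 0.0859). A further 9 assembly factors outside the Ndufaf names held 0 calls in either direction (limma), with 1 at an unadjusted p under 0.05. Dmac1 was the nearest of them, at 37.2 ± 7.0 and 51.2 ± 7.56 TPM (limma adjusted p = 0.0744).

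In complex II Sdhc, a membrane anchor of succinate dehydrogenase (chromosome 1 from 171129157 to 171150640), rose from 109, 125 and 101 TPM to 134, 150 and 141 TPM. The groups did not overlap (limma log2 fold change 0.34, SE 0.10, adjusted p = 0.0438). The call was lost when any library but control replicate 2 was left out. The other 3 subunits were not called. Sdha, the flavoprotein, was at 57.1 ± 7.32 and 65.0 ± 4.33 TPM, Sdhb, the iron-sulfur protein, at 124 ± 4.23 and 132 ± 14.0 TPM, and Sdhd, the other anchor, at 96.0 ± 5.89 and 94.5 ± 6.13 TPM.

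None of the 8 subunits of complex III was called in either direction (limma), and 0 had an unadjusted p under 0.05. The highest were the small subunits Uqcr11 (615 ± 68.2 in control and 562 ± 59.8 TPM in LIGHT tumours), Uqcr10 (496 ± 27.8 and 582 ± 104 TPM) and Uqcrb (396 ± 9.25 and 468 ± 67.4 TPM). In Uqcr10 and Uqcrb LIGHT replicate 2, at 702 and 546 TPM, stood above every other library. The core proteins Uqcrc1 and Uqcrc2 and the Rieske protein Uqcrfs1 had log2 fold changes of 0.12, 0.04 and 0.05. The summed complex III subunits were 1.08 times as high in LIGHT tumours, and 1.01 times without LIGHT replicate 2.

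Complex III is put together by factors of its own. Of 6 such assembly genes 3 rose and 1 fell, when 17.7% of all tested genes rose and 5.41% fell. Their median log2 fold change was 0.26. Uqcc3, a factor for the mitochondrially encoded cytochrome b, was at 36.9, 40.2 and 38.2 TPM in control and 56.2, 62.2 and 53.7 TPM in LIGHT libraries (limma log2 fold change 0.56, SE 0.09, adjusted p = 0.00525). Uqcc1, which acts on the same protein, rose from 9.34 ± 0.960 to 14.0 ± 0.864 TPM, and Bcs1l, which inserts the Rieske protein, from 12.1 ± 1.28 to 17.7 ± 3.09 TPM. Uqcc2, the partner of Uqcc1, was the most abundant of the 6 and fell, from 550, 490 and 468 TPM to 389, 377 and 339 TPM (limma log2 fold change -0.45, adjusted p = 0.0145). In these 4 genes the groups did not overlap. All 4 calls held without LIGHT replicate 2 and after trimmed-mean scaling, and 0 held with the skeletal muscle covariate, where 4.05% of all tested genes rose.

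The only member that fell, Ndufa4 of complex IV, was also the one with the highest TPM. The protein was named as a complex I subunit and is found in complex IV (gene on chromosome 6 from 11900372 to 11907450). Ndufa4 was at 4036, 3805 and 3871 TPM in control and 3102, 3027 and 2626 TPM in LIGHT libraries. Every LIGHT library lay below every control library, and the LIGHT mean was 0.748 of the control mean (limma log2 fold change -0.42, SE 0.09, adjusted p = 0.0174). Its log2 fold change was -0.45 without LIGHT replicate 2 and -0.55 after trimmed-mean scaling, with the call kept in both. It did not pass without control replicate 1 (adjusted p = 0.0579), without LIGHT replicate 3 (0.0592) and with the skeletal muscle covariate (0.121). The 12 common complex IV subunits together were 0.964 times as high in LIGHT tumours, and the 11 without Ndufa4 were 1.07 times as high.

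Ndufa4l2, the paralogue of Ndufa4 known as a target of the hypoxia-inducible factor, moved the other way (chromosome 10 from 127509274 to 127517154). It was at 93.4, 119 and 99.5 TPM in control and 158, 130 and 186 TPM in LIGHT libraries. LIGHT replicate 2 was the lowest LIGHT library here, and all 3 lay above the control libraries (limma log2 fold change 0.59, SE 0.15, adjusted p = 0.0259). The log2 fold change was 0.72 without LIGHT replicate 2 and 0.90 with the skeletal muscle covariate, both called, while the call was lost when control replicate 1 or 3 or LIGHT replicate 1 or 3 was left out (adjusted p from 0.0564 to 0.0798). Ndufa4l2 made up 2.26, 3.04 and 2.51% of the summed TPM of both paralogues in control and 4.85, 4.12 and 6.6% in LIGHT libraries. That these shares do not overlap follows from the separate levels of both genes and is no further result.

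Among the other 11 common subunits of complex IV 2 rose, when 17.7% of all tested genes rose. Cox7b (chromosome X from 106015700 to 106022450) was at 136, 132 and 117 TPM in control and 166, 177 and 162 TPM in LIGHT libraries (limma log2 fold change 0.39, SE 0.09, adjusted p = 0.0174). Cox7a2l, a factor that joins complexes III and IV into supercomplexes (chromosome 17 from 83501917 to 83514333), was at 184, 212 and 172 TPM and at 240, 261 and 258 TPM (limma log2 fold change 0.42, SE 0.10, adjusted p = 0.0200). Both had separate groups, and both calls were lost without LIGHT replicate 2 or control replicate 3, that of Cox7a2l also without control replicate 1 or LIGHT replicate 3. After Ndufa4 the highest subunits were Cox7c, at 1431 ± 68.7 (control) and 1638 ± 86.1 TPM (LIGHT), and Cox6b1, at 1435 ± 34.2 and 1463 ± 127 TPM. Neither was called (limma adjusted p = 0.128 and 0.865). The ubiquitous subunit 4, Cox4i1, was at 670 ± 33.8 and 751 ± 79.2 TPM, Cox5a at 518 ± 33.0 and 500 ± 52.8 TPM and Cox5b at 598 ± 33.2 and 574 ± 45.1 TPM, all without a call.

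**Figure D4:**
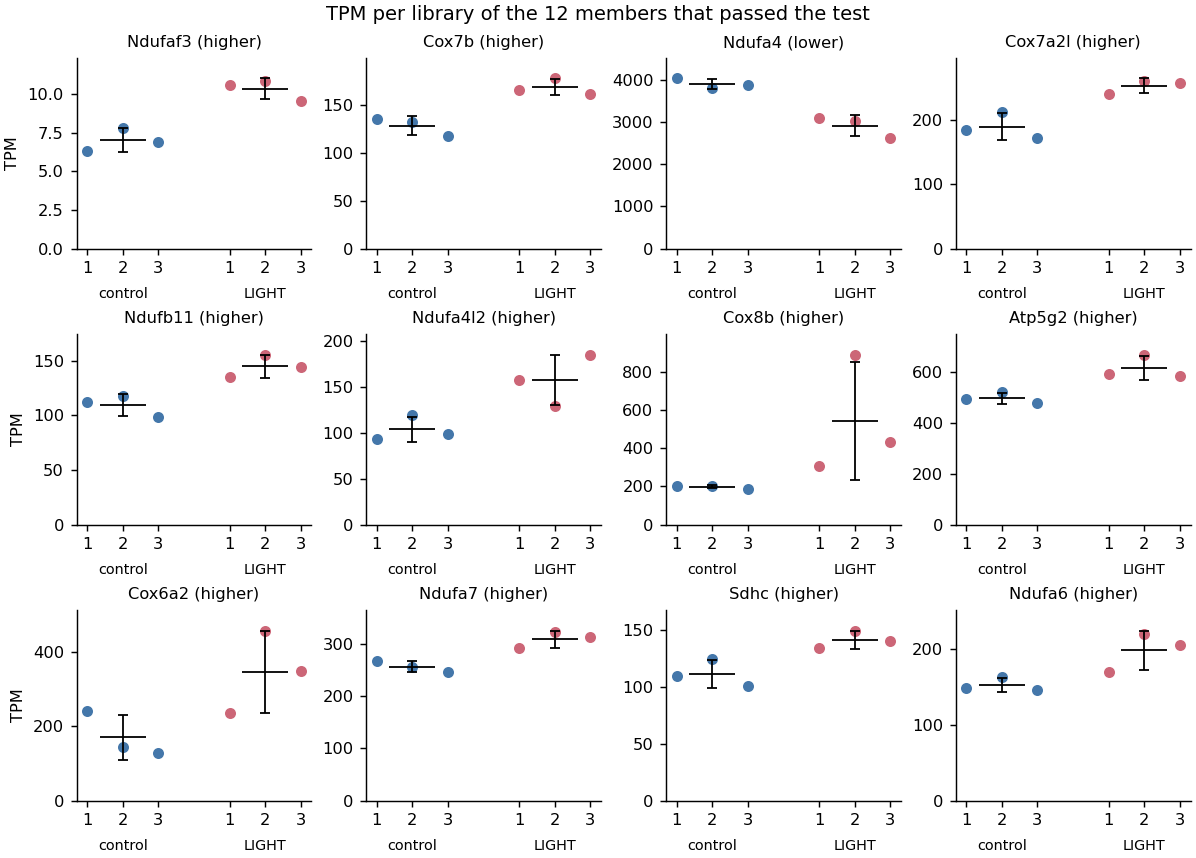
TPM in each library for the 12 members that passed the test, with the mean and SD of each group (n = 3) as a bar; every axis starts at 0. Ndufa4 falls from about 3904 to 2919 TPM, and in Cox8b and Cox6a2 LIGHT replicate 2 stands above the other libraries.

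The 3 striated muscle isoforms had the largest differences among the members. Cox8b (chromosome 7 from 140898942 to 140900446) was at 204, 204 and 188 TPM in control and 305, 890 and 430 TPM in LIGHT libraries. All LIGHT libraries lay above the control ones, with replicate 2 far above the rest (limma log2 fold change 1.30, SE 0.34, adjusted p = 0.0301). Cox6a2 (chromosome 7 from 128205435 to 128206366) was at 240, 144 and 127 TPM and at 236, 456 and 350 TPM; it was called (limma log2 fold change 1.03, SE 0.29, adjusted p = 0.0403) although LIGHT replicate 1 was below control replicate 1. Cox7a1 (chromosome 7 from 30184171 to 30186030) was at 96.1, 102 and 74.4 TPM and at 139, 500 and 131 TPM, and was not called (limma log2 fold change 1.20, SE 0.47, adjusted p = 0.105). Without LIGHT replicate 2 the log2 fold change of Cox8b was 0.87 (adjusted p = 0.0172) and that of Cox7a1 0.58, now called (adjusted p = 0.0438), and Cox6a2 lost its call. The call of Cox8b was lost without any 1 of the control libraries or LIGHT replicate 3, and that of Cox6a2 also without either of control replicates 2 and 3 and without LIGHT replicate 3. With the skeletal muscle covariate 0 of the 3 were called, when 4.05% of all tested genes rose.

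The partners of these isoforms in other tissues were not called. Cox8a was at 1395 ± 39.8 in control and 1399 ± 23.8 TPM in LIGHT tumours, Cox6a1 at 870 ± 35.2 and 927 ± 55.9 TPM and Cox7a2 at 212 ± 13 and 219 ± 25.1 TPM (limma adjusted p = 0.971, 0.455 and 0.794). Cox8b made up 13.1, 12.4 and 11.9% of the sum with Cox8a in control and 18.2, 38.5 and 23.5% in LIGHT libraries. The share of Cox7a1 in its pair was 30.3, 32.1 and 27.4% and 41.4, 67.1 and 37.9%, and that of Cox6a2 22.4, 13.8 and 12.6% and 21.4, 31.9 and 27.1%. The shares of Cox8b and Cox7a1 did not overlap between groups and that of Cox6a2 did.

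LIGHT replicate 2 was the highest library for the 3 muscle isoforms and for the summed muscle list. Of the 25 skeletal muscle genes, none of them a member, 2 rose (Tcap and Ryr1) and 0 fell, when 17.7% of all tested genes rose. Of the same 25, 14 were higher at an unadjusted limma p under 0.05, and the median log2 fold change was 0.70. The number of rises was 15 when control replicate 1 was left out, when 14.0% of all tested genes rose. It was 6 without LIGHT replicate 1 (14.6% of all tested genes). Without control replicate 2 (12.0%) or control replicate 3 (9.87%) it was 0. In these 4 fits the median was, in the same order, 0.92, 0.82, 0.55 and 0.51. The counts without LIGHT replicate 2 or LIGHT replicate 3 are not given here. Summed, the 3 isoforms were 8.0, 11.4 and 9.06% of the summed muscle list in control and 10.8, 17.1 and 12.1% in LIGHT libraries, groups that overlap. In LIGHT replicate 2 Cox7a1 stood at 5.50 times, Cox8b at 4.48 times and Cox6a2 at 2.67 times the control mean. The 25 muscle genes had a median of 1.88 times there, from 0.743 for Myh2, a myosin heavy chain, to 4.29 for Myh4, another. LIGHT replicate 2 was the highest library in 15 of the 25, LIGHT replicate 3 in 6, control replicate 1 in 3 and LIGHT replicate 1 in 1.

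**Figure D5:**
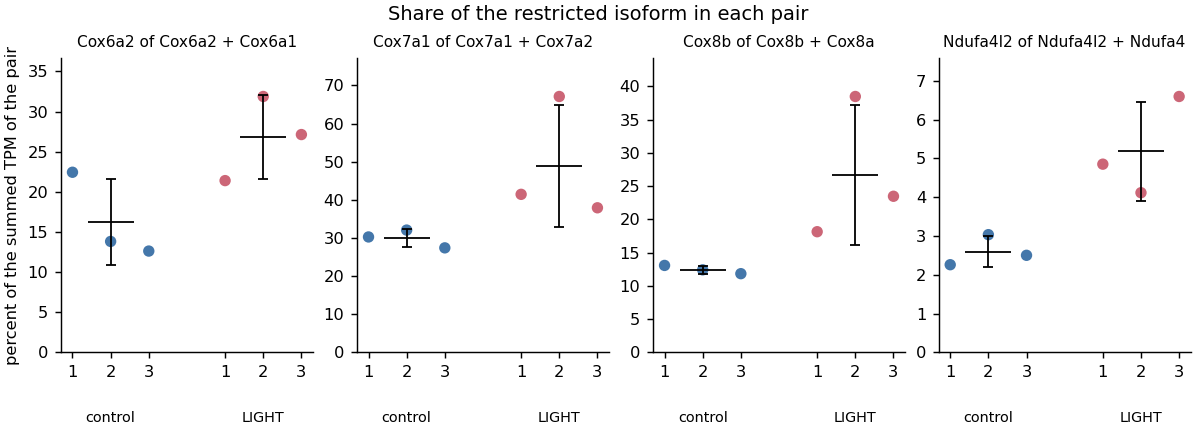
Share of the restricted isoform in the summed TPM of each isoform pair, in percent, by library, with the mean and SD of each group (n = 3). LIGHT libraries lie above control libraries for Cox7a1, Cox8b and Ndufa4l2 and overlap them for Cox6a2.

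The remaining restricted isoforms were near the limit of the test. Cox4i2, a form of subunit 4 high in lung, was at 1.35, 1.91 and 1.28 TPM in control and 0.17, 1.72 and 0.98 TPM in LIGHT libraries. Cox6b2, the testis form of subunit 6B, was at 1.49, 1.56 and 0.79 TPM and at 1.49, 1.11 and 1.04 TPM. In both the groups overlapped and neither was called. Among 24 tested genes for the assembly of complex IV 3 rose and 0 fell, when 17.7% of all tested genes rose. Their median log2 fold change was 0.03. Cox20, a chaperone of the mitochondrially encoded subunit 2, was at 58.3, 77.1 and 62.2 TPM in control and 110, 142 and 107 TPM in LIGHT libraries (limma log2 fold change 0.85, SE 0.14, adjusted p = 0.00754). Cox16 rose from 13.8 ± 1.88 to 21.1 ± 1.4 TPM and Sco2, which delivers copper to subunit 2, from 17.4 ± 0.684 to 22.6 ± 0.419 TPM. All 3 had separate groups and were also called without LIGHT replicate 2, when 11.9% of all tested genes rose. With the skeletal muscle covariate 0 of them were called, when 4.05% of all tested genes rose. Surf1, another assembly factor, was at 29.9 ± 3.01 and 37.7 ± 2.89 TPM without a call (limma adjusted p = 0.0579).

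In complex V 1 of 17 subunits rose, when 17.7% of all tested genes rose. Atp5g2, one of 3 genes for the subunit c that forms the rotating ring (chromosome 15 from 102662868 to 102671047), was at 493, 521 and 479 TPM in control and 592, 670 and 586 TPM in LIGHT libraries. The groups did not overlap (limma log2 fold change 0.30, SE 0.08, adjusted p = 0.0373), and the call was lost whichever library was left out. The other c genes, Atp5g1 (510 ± 15.0 and 518 ± 80.4 TPM) and Atp5g3 (413 ± 45.5 and 391 ± 45.1 TPM), were not called. The highest complex V members were the small membrane subunits Atp5md (1709 ± 52.3 and 1732 ± 133 TPM), Atp5j2 (1008 ± 52.3 and 1178 ± 97.6 TPM) and Atp5l (1002 ± 5.34 and 1056 ± 52.8 TPM), without a call. The catalytic alpha and beta subunits, Atp5a1 and Atp5b, were at 333 ± 27.2 and 338 ± 15.2 TPM and at 831 ± 78.3 and 785 ± 6.14 TPM. Among the 5 subunits of the F1 head, the 4 of the peripheral stalk and the 5 of the membrane part, 0 were called, with medians of 0.11, 0.07 and 0.07. Of the 4 other assembly and dimer genes of complex V 0 were called; Atpif1, the inhibitor of the ATP synthase, was nearest, at 198 ± 9.22 and 230 ± 2.41 TPM (limma adjusted p = 0.0728).

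By summed TPM, all members made up 3.31% of the transcripts in control and 3.50% in LIGHT tumours. The ratio of the sums was 1.11 for complex I, 1.11 for complex II, 1.08 for complex III and 1.06 for complex V. For the 12 common complex IV subunits it was 0.964, and for all 77 common subunits 1.04. Without LIGHT replicate 2 these ratios were, in the same order, 1.04, 1.07, 1.01, 1.01, 0.933 and 0.988. The 11 common complex IV subunits other than Ndufa4 had a ratio of 1.07, and of 1.03 without LIGHT replicate 2. The sum of the 3 muscle isoforms was 2.49 times as high in LIGHT tumours and 1.73 times without that library. The subunits encoded in mitochondrial DNA were not analysed here.

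Calls in the lists around the chain are given beside those of all tested genes, of which 17.7% rose and 5.41% fell. In the citrate cycle 3 of 20 genes rose and 0 fell: Mpc1, a subunit of the pyruvate carrier (101 ± 5.46 to 135 ± 15.6 TPM), Idh3b (119 ± 6.56 to 145 ± 3.52 TPM) and Idh2 (37.8 ± 2.24 to 47.1 ± 2.02 TPM), both isocitrate dehydrogenases. None of the 3 was called without LIGHT replicate 2 or after trimmed-mean scaling, when 11.9% and 12.8% of all tested genes rose. Of 18 electron carrier and coenzyme Q genes 2 rose, Coq8a (21.0 ± 5.75 to 41.7 ± 11.8 TPM) and Coq10a (21.9 ± 1.66 to 35.6 ± 9.85 TPM), and Coq10b fell (48.0 ± 1.64 to 37.2 ± 1.73 TPM). Of 19 outer membrane, import and transport genes 2 rose, the carnitine carrier Slc25a20 (14.7 ± 1.4 to 20.9 ± 2.05 TPM) and the adenine nucleotide carrier Slc25a4 (209 ± 28.9 to 324 ± 82.5 TPM), and Phb2, a prohibitin, fell (266 ± 14.1 to 222 ± 2.58 TPM). The median log2 fold changes of these lists were 0.08, 0.02 and -0.05. LIGHT replicate 2 was the highest library for Coq8a (49.9 TPM), Coq10a (46.6 TPM) and Slc25a4 (419 TPM), and LIGHT replicate 1 for Slc25a20 (23.0 TPM).

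Of 15 tested regulators of mitochondrial biogenesis 1 rose, when 17.7% of all tested genes rose. Ppargc1a, the coactivator PGC-1alpha, was at 1.16, 0.78 and 1.02 TPM in control and 2.66, 2.51 and 2.44 TPM in LIGHT libraries, low levels with separate groups (limma log2 fold change 0.84, SE 0.12, adjusted p = 0.00444). Its call held without LIGHT replicate 2 and after trimmed-mean scaling and was lost with the skeletal muscle covariate. Nrf1, Gabpa and Yy1, whose motifs were searched above, were at 17.3 ± 1.44 and 15.2 ± 1.43 TPM, at 13.2 ± 1.04 and 12.1 ± 1.69 TPM and at 22.3 ± 1.75 and 23.8 ± 1.01 TPM, none called. Nrf1 was called lower after trimmed-mean scaling. The list had a median log2 fold change of -0.01.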

How the data were processed

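RNA of 6 tumour libraries, 3 per group, was sequenced after ribosomal RNA depletion, per the labels' protocols. The authors deposited 1 table of TPM per gene with 1 column per library; all columns have an equal sum, so depth and counting error are unknown. HISAT, Bowtie2 and GRCm38.p6 are named, without roles, per the submitters' processing notes. The quantifier and its annotation were not given in the sources used here. No library pair held identical values.

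Genes that reached 1 TPM in 3 or more libraries (13167) were tested with limma 3.58.1 in R 4.3.3 (lmFit, eBayes with trend, 2-sided) on log2(TPM + 1), without covariates, with Benjamini-Hochberg adjustment; the script was tested on simulated data. Alternatives were pseudocounts of 0.1 and 0.5, no filter or one at 5 TPM, trimmed-mean scaling (30% of log ratios and 5% of levels trimmed), quantile normalization, each library left out, the replicate block, a skeletal muscle covariate, limma without trend or robust, and adjusted p under 0.01. The members and gene lists were chosen with earlier results of these data known. The genes named are all called members, the 3 highest of each complex, all restricted isoforms and their partners, up to 3 Ndufaf genes and up to 4 genes per list by smallest p. Promoters, gene positions and symbols (93 of 93 members matched) come from RefSeq GRCm38.p6; the first promoter listed per gene was used. Transcript lengths are from GENCODE M21 (12810 tested genes, 75 of 77 common subunits). Proteins of isoform pairs were not compared here. Python 3.11.15 with matplotlib 3.10.9 drew the figures.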

Additional observations from a re-analysis of the deposited data

How the results depend on the processing

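With the values as reported 11 members rose and 1 fell, at a median log2 fold change of 0.09. The number of rises was 7 without a filter on low values, when 12.1% of all tested genes rose, and 7 in limma without trend (17.8%). It was 3 after trimmed-mean scaling (12.8% of all tested genes) and 5 after quantile normalization (10.6%). With the skeletal muscle covariate it was 1 (4.05%), and at an adjusted p under 0.01 it was 0. Leaving out 1 library gave 0 to 12, when 8.86 to 14.6% of all tested genes rose. With the values as reported 17.7% of all tested genes rose. The number of falls was 0 with the skeletal muscle covariate and at an adjusted p under 0.01, and 0 to 1 when 1 library was left out. The median was -0.033 after trimmed-mean scaling and -0.026 with the skeletal muscle covariate, and 0.03 to 0.13 with 1 library left out. Higher calls were 76.6% of the calls among all tested genes, 47.7% with the trimmed mean and 43.6% with quantiles, and among members 91.7%, 75.0% and 83.3%. Each of the 12 called members lost its call in 4 to 12 of 17 other settings and none changed sign; 9 other members were called only in other settings. The cause of these changes was not tested, apart from the fewer libraries or the stricter threshold where those define the setting. Same-numbered libraries of both groups had correlations of deviations from the group means of 0.37, 0.24 and 0.01, so the numbers were not taken as pairs; with the replicate block 14 members rose and 2 fell. Control replicate 3 and LIGHT replicate 2 correlated at 0.33, more than either did with its own number. LIGHT replicate 3 correlated most with control replicate 1, at 0.09. TPM keep no depth, so the precision of low genes such as Cox4i2, Cox6b2 and Ndufb4b is unknown.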

Other observations

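Fatty acid oxidation feeds electrons into the chain. In LIGHT tumours 5 of its 13 genes rose and 0 fell (median log2 fold change 0.34), when 17.7% of all tested genes rose. The 3 LIGHT libraries lay above the control libraries in 10 of the 13, when they did so in 29.6% of all tested genes. Eci1, which isomerises unsaturated fatty acid intermediates, was at 14.0, 14.8 and 11.9 TPM in control and 33.1, 37.4 and 29.6 TPM in LIGHT libraries (limma log2 fold change 1.24, SE 0.12, adjusted p = 0.00124). Acadm, the medium-chain dehydrogenase, rose from 22.0 ± 0.990 to 36.7 ± 4.83 TPM. Cpt1b, the muscle form of the carnitine transferase that admits fatty acids to mitochondria, rose from 4.36 ± 0.912 to 8.23 ± 1.67 TPM, its liver form Cpt1a from 10.4 ± 1.85 to 16.8 ± 1.68 TPM and Echs1 from 29.2 ± 1.10 to 38.0 ± 3.70 TPM. Of these calls 4 held without LIGHT replicate 2 (all but Echs1), when 11.9% of all tested genes rose. The same 4 held after trimmed-mean scaling, when 12.8% of all tested genes rose. With the skeletal muscle covariate 2 held (Eci1 and Cpt1a), when 4.05% of all tested genes rose. Of the adipocyte list 3 genes were tested and 1 rose, Cidea, a lipid droplet protein (3.90 ± 0.560 to 9.42 ± 1.5 TPM), while Adipoq and Ucp1 were at or below 0.22 TPM in every library. The part of muscle or fat cells in these values was not tested.

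AA467197, the mouse gene for a further paralogue of Ndufa4, does not carry an Nduf name and was chosen after its values were seen. It was at 1329, 1655 and 2093 TPM in control and 950, 1188 and 763 TPM in LIGHT libraries. Every LIGHT library lay below every control library (limma log2 fold change -0.81, SE 0.20, adjusted p = 0.0274). Of the 3 paralogues, Ndufa4 and AA467197 thus fell and Ndufa4l2 rose.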
